A study of Mus musculus with 9 samples.

Results

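Skeletal muscle contractile and metabolic genes were followed in bulk RNA-Seq libraries of skin from control and *Supt6*-KO mice. The set holds 35 genes chosen by name for their known part in the striated muscle fibre, with earlier results of these data known. All 35 were found by gene identifier among the 17943 genes of the count table, and all 35 passed the filter of at least 10 counts summed over the 9 mice, as did 16426 genes in all.

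A skeletal muscle fibre contracts when thin filaments of actin slide past thick filaments of myosin inside the sarcomere, the unit between neighbouring Z discs. Calcium released from the sarcoplasmic reticulum binds troponin on the thin filament and frees actin for myosin, and a calcium pump then returns it to the store, while creatine kinase and glycolysis refill ATP. Fast and slow fibres use different genes for the same parts. In mouse skin, striated fibres lie in a thin muscle sheet beneath the dermis and, in the ear, in small muscles around the cartilage, so RNA from a whole piece of skin carries their transcripts.

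The 5 control mice and 4 *Supt6*-KO mice were harvested on day 10 after the last injection. Per the study's methods, the *Supt6*-KO mice carried K14-CreERT and *Supt6* fl/fl, with exons 12 to 19 of *Supt6* floxed, and received tamoxifen on 5 consecutive days at 50 mg/kg, while the controls were *Supt6* fl/fl mice given corn oil. The sample labels call the controls wild-type. All groups thus share the *Supt6* fl/fl allele by the methods but not by the labels. The paper describes tamoxifen injection during the first telogen phase of the hair cycle, without an age for these mice. K14-CreERT, a tamoxifen-activated recombinase under the keratin 14 promoter, works in basal keratinocytes of the epidermis. Cre, tamoxifen and the loss of *Supt6* came together in the *Supt6*-KO mice and cannot be told apart. The labels name the tissue as ear and the methods name dorsal skin. Markers of cartilage, a tissue of the ear, were read in all 9 mice, and their sum was lower in every *Supt6*-KO mouse than in every control (values below). Each of the 35 muscle genes had counts in all 9 mice.

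The deposited values are estimated counts per gene, which summed to 29627341 to 30967107 per mouse. Levels are given as CPM, the counts of a gene per 1000000 counts of its library, after TMM scaling, which sets the libraries level over most genes. The TMM factors were 1.20 to 1.31 in controls and 0.674 to 0.910 in *Supt6*-KO mice. A log2 fold change is the *Supt6*-KO level over the control level, and a gene is called lower or higher where edgeR's quasi-likelihood test over all 16426 genes gave a Benjamini-Hochberg adjusted p under 0.05 and the change was at least 2-fold. One library stood apart. *Supt6*-KO mouse 4 differed from the other 3 *Supt6*-KO mice by a chi-square of 249 to 416 per degree of freedom over genes, against 31.8 to 72.5 among those 3 and 20.2 to 120.5 among controls. The counts of muscle genes called are therefore also given without it where they change.

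*Supt6* encodes SPT6, a histone chaperone that travels with RNA polymerase II. Its level was 74.5, 56.6, 63.6, 91.1 and 96.7 CPM in control mice 1 to 5 and 28.6, 24.1, 21.9 and 28.4 CPM in *Supt6*-KO mice 1 to 4. Every *Supt6*-KO mouse lay below every control, with means of 76.5 ± 17.2 CPM (SD, n = 5) and 25.7 ± 3.31 CPM (SD, n = 4). The log2 fold change was -1.57 (SE 0.18), and the two-sided exact permutation test of log2 CPM gave p = 0.00794, the smallest that 5 against 4 mice allow. Counts were taken over the whole gene, so reads from exons outside the deleted ones are included. The correction for transcript length described below brought the change to -0.87, under the 2-fold limit.

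Of the 35 muscle genes, 29 were called lower in *Supt6*-KO skin and 0 were called higher, and with DESeq2 or at an unadjusted p under 0.05 with any fold the count of higher members was 0 too. Over all genes tested, 24.9% were called lower and 20.9% higher, so the members' share of lower calls lay above the background. Since the members were chosen with earlier results known, this comparison describes the set and does not test it. At an adjusted p under 0.05 with any fold, 33 members were lower, against 36.8% of all genes. With an unadjusted p under 0.05 and a 2-fold change, the cutoff in the study's methods, 29 members were lower, against 25.2% of all genes. In 31 members every *Supt6*-KO mouse lay below every control mouse, as in 31.8% of all genes. The median log2 fold change of the members was -2.19, and that of all genes tested was -0.07.

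Scaled by library totals alone, the median of all genes moved to -0.76 and that of the members to -2.90, and 34 members were called lower. The share of higher calls among all calls moved from 45.6% to 17.8% with that scaling. Without *Supt6*-KO mouse 4, 25 members were called lower and their median was -2.28. The 4 that then missed the 2-fold limit were *Tnnt1*, *Tnnc1*, *Tnnc2* and *Eno3*. In a bulk sample, fewer muscle fibres in the piece of skin and less RNA per fibre cannot be told apart.

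Taken as one sum, the 35 genes held 1.18%, 1.18%, 1.303%, 0.993% and 1.13% of all counts in control mice 1 to 5. In *Supt6*-KO mice 1 to 4 they held 0.179%, 0.206%, 0.186% and 0.183%. The 2 groups did not overlap, and the *Supt6*-KO mice lay close together, with a mean of 0.189% ± 0.012 (SD, n = 4) against 1.16% ± 0.11 (SD, n = 5). After TMM scaling the sum was 9483, 9812, 10683, 8013 and 8587 CPM in controls against 2297, 3056, 2632 and 2011 in *Supt6*-KO mice, a mean ratio of 3.73 of control over *Supt6*-KO. *Acta1* was the most abundant member in controls, also per length. The plot of each gene by mouse shows these levels for all members.

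**Figure D1:**
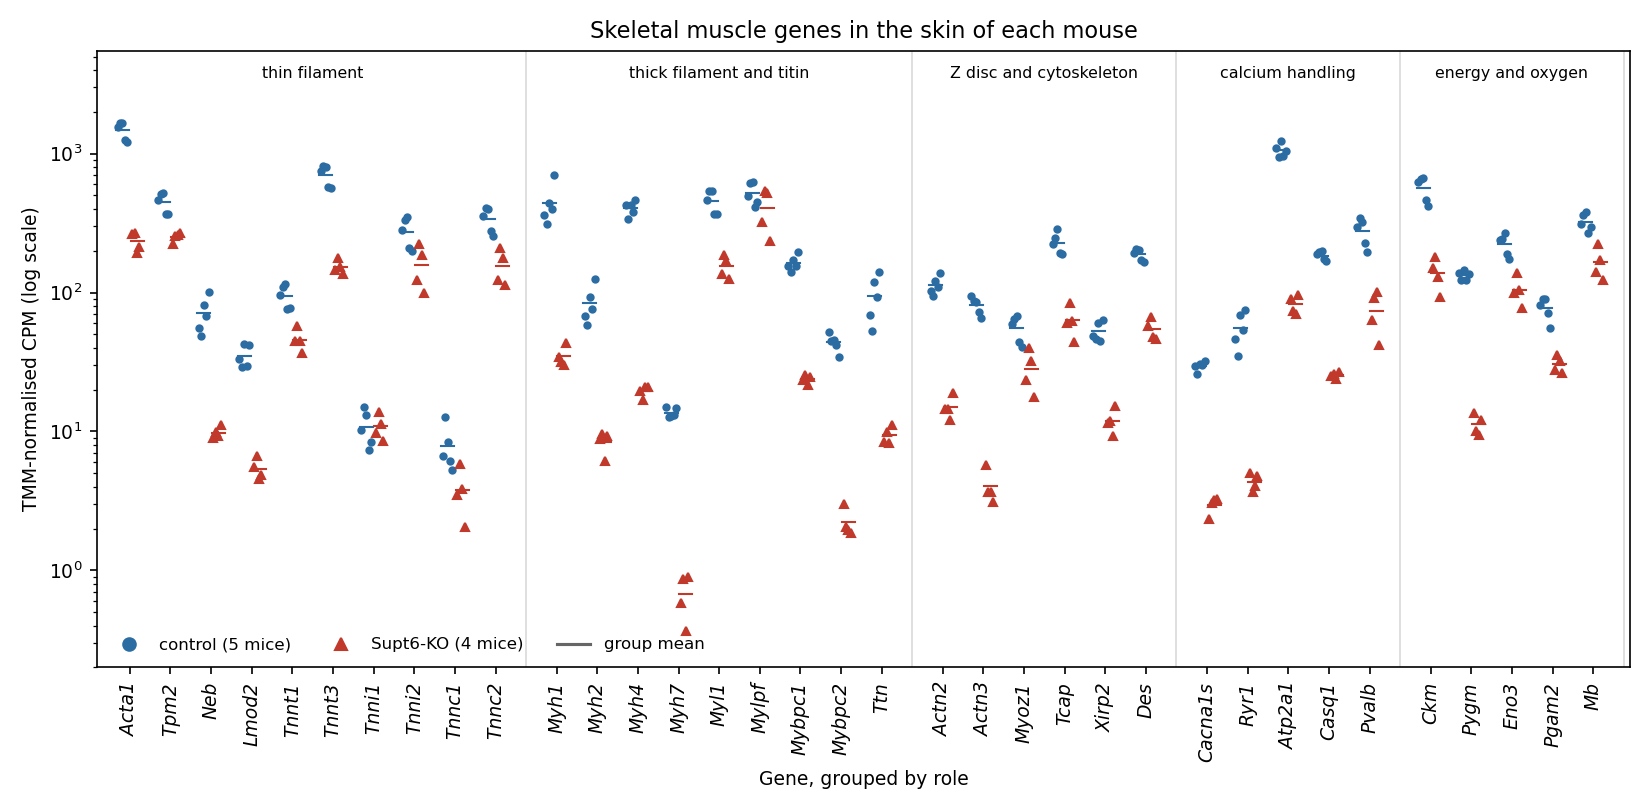
TMM-normalised CPM (log axis) of the 35 skeletal muscle genes in each of 5 control mice (circles) and 4 *Supt6*-KO mice (triangles), grouped by role, with short lines at the group means. The triangles lie below the circles for 31 of the 35 genes, with *Myh4*, *Myh7*, *Mybpc2* and *Actn3* furthest apart, and the 2 groups mix for *Tnni1*, *Tnni2*, *Tnnc1* and *Mylpf*.

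The thick filament and calcium handling had the largest median changes of the role groups, also with the length correction described below. Of the 9 members of the thick filament, counted with titin, 8 were called lower and the median log2 fold change was -3.33. Myosin heavy chains are the motor proteins that pull on actin, and each fibre type has its own. The genes of 3 fast heavy chains stand next to each other on the forward strand of chromosome 11 (GRCm38), *Myh2* at chr11:67171027-67197517, *Myh1* at chr11:67200102-67224577 and *Myh4* at chr11:67237812-67260447. The slow heavy chain gene *Myh7* lies on the reverse strand at chr14:54970684-54994626.

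*Myh4*, the heavy chain of the fastest fibres, was at 424, 336, 429, 377 and 461 CPM in control mice 1 to 5 and at 19.7, 16.8, 20.8 and 20.8 CPM in *Supt6*-KO mice 1 to 4. No *Supt6*-KO mouse came near a control. With TMM scaling this was the largest change of the set (log2 fold change -4.38, SE 0.16, adjusted p = 2.32e-08), while with the length correction described below *Actn3* and *Mybpc2* changed more (-4.39 and -4.14 against -3.75). *Myh1*, the heavy chain of type IIX fibres, read 359.8, 310.2, 443, 401 and 699 CPM in controls against 34.6, 31.9, 29.9 and 43.3 CPM in *Supt6*-KO mice. Control mouse 5 was the highest, and the *Supt6*-KO mice were all far below the lowest control (log2 fold change -3.66, SE 0.26, adjusted p = 7.51e-07). For *Myh2*, the heavy chain of type IIA fibres, the controls gave 67.7, 58.5, 92.5, 75.8 and 125 CPM and the *Supt6*-KO mice 8.82, 9.60, 6.08 and 9.27 CPM. The groups stood apart again (log2 fold change -3.31, SE 0.25, adjusted p = 9.91e-07).

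*Myh7*, the slow heavy chain shared with the heart, had 557, 462, 469, 482 and 578 counts in controls and 14, 18, 8 and 25 counts in *Supt6*-KO mice. These were 13.7 ± 1.06 CPM (SD, n = 5) and 0.678 ± 0.251 CPM (SD, n = 4), without overlap (log2 fold change -4.32, SE 0.25, adjusted p = 2.07e-07). The slow gene thus fell about as far as *Myh4*. Heavy chain genes are close copies of each other, and 9.73% of the 100-base windows of *Myh1*, 9.17% of *Myh2*, 3.85% of *Myh4* and 11.2% of *Myh7* also occur in another gene, for the fast genes in one another or in *Myh8* and for *Myh7* in *Myh6*. Reads from such windows are divided by estimation, so the split between these genes is less certain than their sum. An antisense gene, *Myhas*, also overlaps exons of *Myh1*, and *Mhrt* overlaps *Myh7*. Whether the counting used strand is not stated in the sources used here, so reads of each pair cannot be told apart.

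The stretches just before the start of *Myh4*, *Myh1* and *Acta1*, the actin gene described further on, are shown because *Myh4* had the largest change with TMM scaling, *Myh1* is its neighbour on the chromosome and *Acta1* had the highest level. The sequences are from RefSeq on GRCm38.p6, written 5′ to 3′ along the gene. They cover chr11:67237562-67237811 on the forward strand for *Myh4*, chr11:67199852-67200051 on the forward strand for *Myh1* and chr8:123894776-123895025 on the reverse strand for *Acta1*. Those of *Myh4* and *Acta1* are the 250 bases before the annotated start, and that of *Myh1* stops at base 51 before the start, where another annotated transcript begins. Capitals mark matches, on either strand, to a MEF2 site (bound by myocyte enhancer factors 2), a CArG box (bound by serum response factor), CAGCTG (the E-box favoured by MyoD family factors) and TATAAA (the TATA box letters).
Myh4: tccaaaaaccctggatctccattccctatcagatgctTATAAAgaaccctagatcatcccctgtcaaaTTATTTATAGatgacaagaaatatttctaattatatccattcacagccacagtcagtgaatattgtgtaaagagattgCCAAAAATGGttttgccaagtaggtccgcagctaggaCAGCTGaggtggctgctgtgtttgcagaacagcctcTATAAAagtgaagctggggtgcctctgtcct
Myh1: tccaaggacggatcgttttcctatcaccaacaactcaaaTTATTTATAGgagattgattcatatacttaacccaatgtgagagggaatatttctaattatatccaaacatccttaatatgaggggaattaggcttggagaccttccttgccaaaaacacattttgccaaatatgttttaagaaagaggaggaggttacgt
Acta1: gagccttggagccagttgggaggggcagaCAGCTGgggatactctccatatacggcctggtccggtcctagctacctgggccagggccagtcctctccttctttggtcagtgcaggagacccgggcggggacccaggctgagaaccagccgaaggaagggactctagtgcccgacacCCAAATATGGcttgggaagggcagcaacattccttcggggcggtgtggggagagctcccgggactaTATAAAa
The *Myh4* stretch holds 1 MEF2 site, 1 CArG box and 1 CAGCTG. In *Myh1* it holds 1 MEF2 site and neither of the other 2. In *Acta1* it holds 1 CArG box and 1 CAGCTG but no MEF2 site.

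RefSeq windows were at hand for 29 of the 35 members and for 27025 genes in all, and the 250 bases before the start were searched in each. A MEF2 site was matched in 6 members (20.7%), *Myh1*, *Myh4*, *Pgam2*, *Pvalb*, *Ttn* and *Xirp2*, and in 3.42% of all genes. CAGCTG was matched in 15 members (51.7%) and in 14.7% of all genes. A CArG box was found in 2 members, *Acta1* and *Myh4* (6.9%), against 1.62% of all genes. The looser E-box CANNTG, which includes CAGCTG, was in 26 members (89.7%) and in 69.3% of all genes, and TATAAA in 5 members (17.2%) and 14.3% of all genes. In *Myh1* and *Myh4* the MEF2 site overlaps a TATAAA on the other strand, as it does in 209 of all 32851 windows. A match is a description of these letters and not a measured binding site.

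The other members of the thick filament spread widely. *Mybpc2*, the fast form of myosin binding protein C, fell from 43.7 ± 6.20 (SD, n = 5) to 2.23 ± 0.527 CPM (SD, n = 4), with no overlap (log2 fold change -4.29, SE 0.19, adjusted p = 6.84e-08). *Mybpc1*, its slow form, fell less (log2 fold change -2.78, SE 0.13, adjusted p = 8.63e-08). Titin, *Ttn*, the giant spring that links thick filament and Z disc, went from 94.9 ± 36.3 to 9.44 ± 1.32 CPM, and the lowest control lay above every *Supt6*-KO mouse (log2 fold change -3.33, SE 0.29, adjusted p = 2.35e-06).

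The light chains of fast myosin had the smallest changes of this group with TMM scaling, while with the length correction *Ttn* changed less than *Myl1* (-2.15 against -2.52). *Myl1*, the essential light chain, had 466, 536, 534, 369.6 and 369.9 CPM in controls against 136, 188, 168 and 124 in *Supt6*-KO mice. The groups stayed apart (log2 fold change -1.56, SE 0.18, adjusted p = 1.73e-05), and 9.36% of its 100-base windows are shared with the pseudogene *Mylf-ps*. *Mylpf*, the regulatory light chain, read 494, 609.5, 626, 412 and 449.5 CPM in control mice 1 to 5 and 322, 539, 519 and 234 CPM in *Supt6*-KO mice 1 to 4. *Supt6*-KO mice 2 and 3 were as high as the controls, mice 1 and 4 were below them, and the difference did not pass the test (log2 fold change -0.36, SE 0.25, adjusted p = 0.21). In *Mylpf*, library totals and the length correction gave -1.11 and -1.73, both past the thresholds.

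On the thin filament, 7 of 10 members were called lower, with a median log2 fold change of -1.08. Without *Supt6*-KO mouse 4 the count was 4. *Acta1*, skeletal actin, the filament itself, stood at 1557, 1661, 1664, 1263 and 1219 CPM in controls against 264, 266, 193 and 212 in *Supt6*-KO mice. The groups did not overlap (log2 fold change -2.66, SE 0.18, adjusted p = 6.85e-07). Nebulin, *Neb*, which runs along the thin filament, had 55.2, 49.0, 81.1, 67.3 and 102 CPM in controls against 8.90, 9.93, 9.24 and 11.1 in *Supt6*-KO mice. It gave the largest change of this group with TMM scaling (log2 fold change -2.86, SE 0.22, adjusted p = 1.15e-06), but with the length correction its change was -1.64, smaller than that of *Acta1* at -3.31. *Lmod2*, leiomodin, which starts and lengthens actin filaments, had 33.1, 29.3, 42.3, 29.7 and 41.7 CPM against 5.56, 6.62, 4.53 and 4.85 CPM. Again no *Supt6*-KO mouse reached a control (log2 fold change -2.71, SE 0.18, adjusted p = 5.25e-07). Tropomyosin 2, *Tpm2*, which lies along actin and covers its myosin sites, was 446 ± 74.3 CPM in controls (SD, n = 5) and 252 ± 18.8 CPM in *Supt6*-KO mice (SD, n = 4), below every control but short of a 2-fold change (log2 fold change -0.82, SE 0.15, adjusted p = 4.57e-04).

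Troponin has 3 parts, T to hold tropomyosin, I to inhibit and C to bind calcium, each with a fast and a slow gene. *Tnnt3*, fast troponin T, was at 745, 818, 797, 574 and 561 CPM in controls against 144, 178, 154 and 135 in *Supt6*-KO mice. Its slow partner *Tnnt1* read 96.1, 109.5, 115, 76.3 and 77.0 CPM and 44.6, 57.0, 44.8 and 37.0 CPM. In neither gene did the groups overlap, with a log2 fold change of -2.19 (SE 0.17, adjusted p = 1.36e-06) for *Tnnt3* and -1.05 (SE 0.17, adjusted p = 1.92e-04) for *Tnnt1*.

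Fast troponin I, *Tnni2*, gave 282, 333, 348, 211 and 198 CPM in controls against 122, 225, 185 and 98.5 in *Supt6*-KO mice. *Supt6*-KO mouse 2 lay within the control range, and the change missed the 2-fold limit (log2 fold change -0.80, SE 0.26, adjusted p = 0.017). Slow troponin I, *Tnni1*, had nearly equal group means, with 10.2, 15.1, 13.1, 7.33 and 8.45 CPM in controls against 9.74, 13.9, 11.3 and 8.59 in *Supt6*-KO mice. It rested on 382, 550, 473, 271 and 332 counts in controls and 233, 290, 247 and 239 in *Supt6*-KO mice. Its log2 fold change was 0.01 (SE 0.23, adjusted p = 0.98) with TMM scaling, -0.71 with library totals and -0.88 with the length correction, so its direction depends on the scaling.

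For troponin C, the fast gene *Tnnc2* had 355, 405, 398, 279 and 254 CPM in controls against 122, 209, 177 and 113 in *Supt6*-KO mice. All *Supt6*-KO mice were below the controls (log2 fold change -1.12, SE 0.22, adjusted p = 7.57e-04). Exons of *Tnnc2* overlap *Ube2c* on the other strand, so reads of this pair cannot be told apart without the strand setting. The slow gene *Tnnc1* gave 6.66, 12.7, 8.36, 6.14 and 5.30 CPM and 3.51, 5.81, 3.84 and 2.05 CPM, from 208 to 463 counts per control and 57 to 121 per *Supt6*-KO mouse. *Supt6*-KO mouse 2 lay just above the lowest control, and the call is a close one (log2 fold change -1.05, SE 0.32, adjusted p = 0.013).

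The Z disc anchors thin filaments of neighbouring sarcomeres. Of its 6 members, counted with the desmin cytoskeleton, 5 were called lower, with a median log2 fold change of -1.999, and all 6 were below every control. *Actn3*, the alpha-actinin of fast fibres, which cross-links actin at the Z disc, was at 94.6, 87.6, 85.2, 72.6 and 65.9 CPM in controls against 5.72, 3.65, 3.66 and 3.13 in *Supt6*-KO mice. Its change lay within its SE of that of *Myh4* (log2 fold change -4.33, SE 0.21, adjusted p = 8.66e-08). *Actn2*, the alpha-actinin of all striated fibres, had 102, 94.6, 120.2, 110.0 and 138 CPM and 14.5, 14.4, 12.03 and 18.9 CPM. It fell as well, by less than *Actn3* in log2 units (log2 fold change -2.91, SE 0.17, adjusted p = 2.34e-07).

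Desmin, *Des*, the intermediate filament that ties Z discs together, read 192, 206, 204, 172 and 167 CPM in controls against 57.9, 66.5, 47.6 and 46.0 in *Supt6*-KO mice (log2 fold change -1.79, SE 0.14, adjusted p = 1.61e-06). *Myoz1*, which binds alpha-actinin and calcineurin, was 59.3, 64.1, 68.0, 43.9 and 40.5 CPM against 23.3, 39.6, 31.9 and 17.6 CPM. The highest *Supt6*-KO mouse, 2, lay just under the lowest control, and the change was a little short of 2-fold (log2 fold change -0.97, SE 0.24, adjusted p = 0.00341). *Tcap*, telethonin, which caps titin, and *Xirp2*, an actin-binding protein of striated muscle, were called lower too, with log2 fold changes of -1.86 (SE 0.20) and -2.14 (SE 0.17).

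All 5 genes of calcium handling were called lower, and no *Supt6*-KO mouse overlapped a control in any of them. Their median log2 fold change was -3.32, and their summed level fell from 1603 ± 158 (SD, n = 5) to 189 ± 12.8 CPM (SD, n = 4). *Atp2a1*, SERCA1, the pump that returns calcium to the store in fast fibres, was at 1099.8, 948, 1230.3, 959 and 1042 CPM in controls against 89.9, 73.5, 69.8 and 96.0 in *Supt6*-KO mice. It carried most of that sum in controls (log2 fold change -3.68, SE 0.17, adjusted p = 8.18e-08). Exons of *Atp2a1* overlap *Rabep2* on the other strand. *Ryr1*, the release channel of the store, gave 46.0, 35.1, 68.6, 53.5 and 75.4 CPM and 5.01, 3.65, 4.03 and 4.74 CPM. The lowest control was still well above the highest *Supt6*-KO mouse (log2 fold change -3.67, SE 0.24, adjusted p = 5.03e-07).

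*Cacna1s*, the voltage sensor that opens *Ryr1*, fell from 29.6 ± 2.34 (SD, n = 5) to 2.97 ± 0.428 CPM (SD, n = 4), with a log2 fold change of -3.32 (SE 0.15). *Casq1*, calsequestrin, which holds calcium in the store, had 189, 195, 197, 173 and 168 CPM in controls against 25.2, 26.1, 23.7 and 26.9 in *Supt6*-KO mice. Within each group its mice lay close together (log2 fold change -2.86, SE 0.11, adjusted p = 3.56e-08). Parvalbumin, *Pvalb*, a calcium buffer of fast fibres, had 296, 346, 321, 226 and 196 CPM in controls against 63.1, 90.9, 100.2 and 41.8 in *Supt6*-KO mice (log2 fold change -1.90, SE 0.27, adjusted p = 6.68e-05). *Supt6*-KO mouse 4 was its lowest. This was the smallest change of the 5 with TMM scaling, but with the length correction it was -2.98, larger than those of *Ryr1* and *Cacna1s* (-2.54 and -2.67).

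Energy supply and oxygen storage had 4 of 5 members called lower, or 3 without *Supt6*-KO mouse 4, and all 5 were below every control. The median log2 fold change was -1.35. *Pygm*, muscle glycogen phosphorylase, which frees glucose units from glycogen, was at 139, 123, 144, 123 and 136 CPM in controls against 13.5, 10.0, 9.38 and 12.1 in *Supt6*-KO mice. It changed most (log2 fold change -3.56, SE 0.14, adjusted p = 3.75e-08). *Ckm*, muscle creatine kinase, had 625, 657, 668, 466 and 423 CPM and 149.9, 180.1, 129.6 and 92.7 CPM. The groups were apart, with a smaller change (log2 fold change -2.04, SE 0.22, adjusted p = 1.10e-05).

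*Eno3*, the muscle enolase of glycolysis, read 239, 243, 266, 189.6 and 174 CPM in controls against 99.99, 139, 104 and 77.5 in *Supt6*-KO mice (log2 fold change -1.08, SE 0.19, adjusted p = 3.21e-04). *Pgam2*, the muscle phosphoglycerate mutase of the same pathway, had a log2 fold change of -1.35 (SE 0.16). Both were called lower, *Eno3* by a narrow margin over 2-fold. Myoglobin, *Mb*, which stores oxygen in the fibre, gave 312, 360.1, 378, 269 and 295 CPM against 141, 224, 172 and 123 CPM and was just under the 2-fold limit (log2 fold change -0.97, SE 0.19, adjusted p = 6.75e-04). Its exons also overlap Apol6 on the other strand, and 16 of the 35 members have some exon overlap with an antisense gene.

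Fast and slow genes were then compared, first by their calls between the groups and then by shares within a mouse. Only the shares do not depend on the scaling between mice. Shares are a description and were not tested. Of the 13 members known from fast fibres, 11 were called lower, with a median log2 fold change of -2.86, and of the 4 known from slow fibres 3 were, with a median of -1.05. The 4 slow members are *Tnnt1*, *Tnni1*, *Tnnc1* and *Myh7*. *Mybpc1*, the slow form of its protein, was in neither set and had a log2 fold change of -2.78. The slow count was 1 with DESeq2 and without control mouse 2 or *Supt6*-KO mouse 4, and the fast count was 10 without *Supt6*-KO mouse 4. With the length correction the medians were -3.01 and -2.22, closer to each other. Within troponin T, slow *Tnnt1* made up 11.4, 11.8, 12.6, 11.7 and 12.1% of the counts of *Tnnt1* and *Tnnt3* in control mice 1 to 5. In *Supt6*-KO mice 1 to 4 it made up 23.6, 24.3, 22.6 and 21.4%. Every *Supt6*-KO mouse was above every control, with means of 11.9 ± 0.441% (SD, n = 5) and 23.0 ± 1.24% (SD, n = 4).

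Slow *Tnni1* was 3.50, 4.32, 3.63, 3.36 and 4.10% of *Tnni1* and *Tnni2* in controls and 7.38, 5.83, 5.74 and 8.02% in *Supt6*-KO mice. It too was higher in every *Supt6*-KO mouse, at 6.74 ± 1.14% against 3.78 ± 0.410%. For troponin C the slow share did not separate, with 2.23 ± 0.466% in controls and 2.35 ± 0.480% in *Supt6*-KO mice. Nor did it for the heavy chains, where *Myh7* held 1.49 ± 0.266% of the 4 genes in controls and 1.06 ± 0.355% in *Supt6*-KO mice.

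Among the fast heavy chains the mix differed. *Myh4* held 48.9, 46.8, 43.9, 43.5 and 35.5% in controls and 30.9, 28.5, 36.4 and 28.0% in *Supt6*-KO mice, with *Supt6*-KO mouse 3 just above the lowest control, mouse 5. *Myh2* held 7.81, 8.15, 9.46, 8.75 and 9.61% in controls and 13.8, 16.2, 10.6 and 12.5% in *Supt6*-KO mice, where every mouse was higher. *Myh1* went from 46.0 ± 4.70% to 54.7 ± 2.56%, and control mouse 5 lay within the *Supt6*-KO range. Among the slow genes, those of troponin T and I thus had a higher share in every *Supt6*-KO mouse, and those of troponin C and the heavy chains overlapped with controls, as the plot of isoform shares shows.

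**Figure D2:**
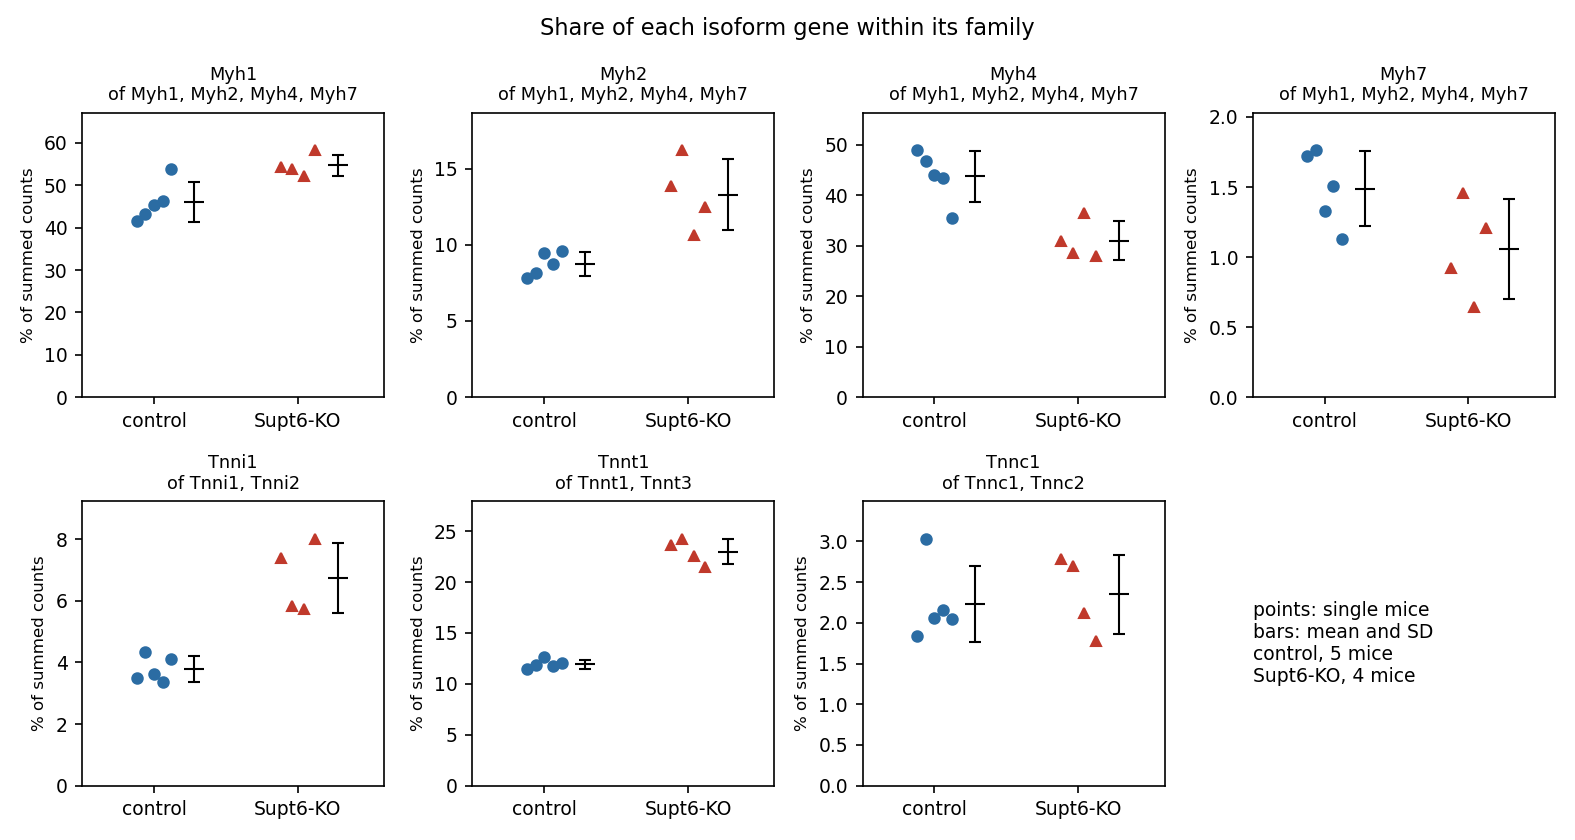
Share (%) of each isoform gene in the summed counts of its family, for 5 control mice (circles) and 4 *Supt6*-KO mice (triangles), with mean and SD beside them. The *Supt6*-KO mice lie above all controls for *Myh2*, *Tnni1* and *Tnnt1*, and the groups overlap for *Myh1*, *Myh4*, *Myh7* and *Tnnc1*.

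Levels can be compared between genes only per length, and CPM per kilobase of the longest annotated coding transcript was used for that. In controls the order was *Acta1* at 1019 ± 149.8 (SD, n = 5), *Mylpf* at 677 ± 125, *Tnnt3* at 648 ± 114, *Tnnc2* at 483 ± 98.2, *Myl1* at 421 ± 76.6 and *Tnni2* at 357 ± 89.4 CPM per kilobase. *Acta1* led beyond the spread, while *Mylpf* and *Tnnt3* differed by less than their SDs, as did *Tnnc2* and *Myl1*, and *Myl1* and *Tnni2*. In *Supt6*-KO mice *Mylpf* led, at 527 ± 195 CPM per kilobase (SD, n = 4), ahead of *Tnnc2* at 222 ± 65.2, *Tnni2* at 205 ± 75.3 and *Acta1* at 162 ± 25.7. *Tnnc2*, *Tnni2* and *Acta1* differed by less than the larger SD of each pair. *Mb* followed at 149 ± 40.1, so the order below *Mylpf* is not settled. Deposited TPM values, given for the controls and *Supt6*-KO mouse 4 only, put the same 6 genes first in the same order in controls. In TPM, *Acta1* at 1992 ± 128 (SD, n = 5) and *Mylpf* at 1882 ± 189 were within their SDs of each other.

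The size of the change followed transcript length. Across the 35 members, the Spearman correlation between log10 transcript length and log2 fold change was -0.733, as a description over genes that share 9 libraries. The 14 members under 1500 bases had a median of -1.08 with 9 called lower, the 12 of 1500 to 5000 bases had -2.82 with 11, and the 9 over 5000 bases had -3.33 with all 9. The same direction ran through all genes. Over the 13515 genes with a mean CPM over 1 and a known length, the correlation was -0.424, and the medians were 1.11, 0.03 and -0.83 in the 3 length classes. Of all these genes, 205 of 1979, 1860 of 8716 and 1244 of 2820 were called lower in the 3 classes. The share of lower calls thus rose with length over all genes as well. In each class the members' median was below that of all genes.

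This trend separated the groups in every mouse. Genes over 5000 bases minus those under 1500 bases, in log2 units relative to the control mean of each gene, gave 0.02, -0.43, -0.25, 0.17 and 0.46 in control mice 1 to 5. In *Supt6*-KO mice 1 to 4 it gave -1.83, -2.11, -2.10 and -1.58. *Supt6*-KO libraries thus held relatively fewer counts on long transcripts, and RNA integrity values are not given in the sources used here.

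After a correction for this trend in each mouse, 34 of 35 members were called lower, all but *Tnni1*, and their median was -2.54. The correlation over the members was then -0.168. The short members moved most, with a median of -2.48 in place of -1.08 under 1500 bases, and the long ones moved up to -2.66 over 5000 bases. The plot against length shows both sets of values.

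Other skeletal muscle genes, not among the 35, were counted by lists. Beside the background of 24.9% of all genes called lower, 22 of 28 other sarcomere genes were lower and 0 higher (0 also at an unadjusted p under 0.05 and with DESeq2, as in each skeletal muscle list below with 0 higher except where stated), with a median log2 fold change of -2.42. *Myh3*, the heavy chain of embryonic muscle, fell most of those called with TMM scaling (log2 fold change -3.92, or -3.25 with the length correction, where *Myl3* fell by 3.79). *Tpm1*, the most abundant, also per length, fell by 1.77 on the log2 scale. *Tpm3*, which many cell types also express, was 216 ± 16.0 CPM in controls against 224 ± 99.7 in *Supt6*-KO mice and did not pass (log2 fold change 0.05, SE 0.23, adjusted p = 0.85), and with library totals or the length correction its sign turned.

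Of 16 other calcium and excitation genes, 13 were lower and 0 higher (median -2.05). *Scn4a*, the sodium channel of the muscle membrane, had 7.89, 5.59, 9.97, 8.87 and 11.2 CPM in controls against 0.669, 0.384, 0.366 and 0.251 in *Supt6*-KO mice (log2 fold change -4.38, SE 0.32, adjusted p = 9.03e-07). *Hrc* and *Srl*, proteins of the sarcoplasmic reticulum, had log2 fold changes of -3.17 and -2.50. *Atp2a2*, the pump of slow fibres, heart and also of keratinocytes, was at 258 ± 36.2 and 158 ± 54.0 CPM and did not reach 2-fold (log2 fold change -0.70, SE 0.21, adjusted p = 0.00989). It was at -1.36 with library totals, past both thresholds, and at -0.33 with the length correction, which did not pass the test.

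Among 16 other energy genes, 12 were lower and 1 higher (median -1.97). *Eef1a2*, the elongation factor of muscle and nerve, fell most, from 83.2 ± 5.93 (SD, n = 5) to 7.92 ± 1.86 CPM (SD, n = 4), and *Pfkm*, muscle phosphofructokinase, had a log2 fold change of -2.86. The one gene that rose was *Ldha*, lactate dehydrogenase A, a glycolytic enzyme of most cells, at 487, 538, 455, 427 and 367 CPM in controls against 822, 817, 1129.9 and 1919.9 in *Supt6*-KO mice. *Supt6*-KO mouse 4 was the highest (log2 fold change 1.36, SE 0.25, adjusted p = 4.95e-04), and the call ended with library totals (0.73) and with the length correction (0.93). *Aldoa*, also widely expressed, was 884 ± 106 and 924 ± 99.95 CPM and did not pass the test, with a log2 fold change of 0.06 that turned to -0.61 with library totals and -0.52 with the length correction. Summed over the 16, the level was 2229, 2303, 2219.6, 1937 and 1866 CPM in controls against 1870.0, 1836, 2192 and 3145 in *Supt6*-KO mice. With TMM scaling the sum thus did not fall, unlike its members' median. With library totals the mean sum was lower in *Supt6*-KO mice, and only *Supt6*-KO mouse 4 was not below every control.

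In the membrane and dystrophin complex, which ties the fibre to the matrix, 7 of 9 genes were lower and 0 higher, or 1 higher (*Sgcb*) at an unadjusted p with any fold (median -1.39). *Sgca*, a sarcoglycan of striated muscle, fell from 13.0 ± 0.982 CPM to 2.55 ± 0.190 CPM, and *Sgcd* and *Dag1* had log2 fold changes of -2.06 and -1.82. *Sgcb*, a sarcoglycan of more tissues, had 30.4 ± 2.44 CPM in controls against 40.5 ± 5.24 in *Supt6*-KO mice, above every control and short of 2-fold (log2 fold change 0.42, SE 0.12, adjusted p = 0.00772), and with library totals it was at -0.27. The count lower was again 7 with the length correction, with *Cav3* in place of *Dmd*, the dystrophin gene, which went from -1.39 to -0.31. At the neuromuscular junction, where the nerve meets the fibre, 10 of 11 genes were lower and 0 higher (median -1.68). *Ache*, acetylcholinesterase, went from 11.98, 10.7, 15.6, 12.7 and 14.0 CPM in controls to 1.09, 1.06, 0.686 and 1.04 CPM in *Supt6*-KO mice (log2 fold change -3.74, SE 0.20, adjusted p = 1.61e-07). *Chrne*, a subunit of the adult acetylcholine receptor, had a log2 fold change of -2.51, and *Lrp4*, the agrin receptor, which skin also expresses, one of -1.67. *Lrp4* was at -0.84 with the length correction, short of 2-fold, and 8 genes of this list were called lower.

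Regulators of muscle genes and markers of satellite cells, the stem cells of muscle, had 10 of 15 lower and 0 higher, or 1 higher (*Megf10*, with a log2 fold change of 0.33 in the uncorrected test) with the length correction (median -1.77). *Mef2d* and *Mef2a*, transcription factors that bind MEF2 sites, had 69.6 ± 12.2 and 142 ± 21.9 CPM in controls (SD, n = 5) and 14.7 ± 1.76 and 76.2 ± 10.9 CPM in *Supt6*-KO mice (SD, n = 4). *Mef2d* was called lower (log2 fold change -2.24, SE 0.16, adjusted p = 7.16e-07), while *Mef2a* did not reach 2-fold (log2 fold change -0.89, SE 0.15, adjusted p = 2.07e-04). *Mef2a* was at -1.59 with library totals, past both thresholds, and at -0.34 with the length correction. *Myod1*, a master regulator of the muscle lineage, was low throughout, with 60, 104, 93, 76 and 148 counts in controls and 7, 8, 6 and 17 in *Supt6*-KO mice (log2 fold change -2.69, SE 0.34, adjusted p = 3.11e-05). *Pax7*, the satellite cell factor, had 10, 7, 10, 8 and 20 counts in controls and 0 in each *Supt6*-KO mouse, which against a floor of 3 counts per library makes it at least 2.27-fold lower. Such floors cover counting error only.

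Genes of muscle wasting and denervation had 8 of 13 lower and 3 higher (median -1.26), beside 24.9% lower and 20.9% higher over all genes. The count higher is near that share. *Trim63* and *Fbxo32*, ubiquitin ligases of muscle atrophy, read 27.5, 24.5, 11.7, 21.1 and 8.71 CPM and 77.7, 50.6, 39.8, 56.4 and 43.3 CPM in controls. In *Supt6*-KO mice they read 3.51, 3.12, 2.38 and 2.12 CPM and 19.4, 17.4, 14.4 and 9.74 CPM. Both were lower in every *Supt6*-KO mouse (log2 fold changes -2.75 and -1.81), as was *Foxo1*, a factor that drives them (-2.71). The 3 higher were *Gadd45a*, a stress gene of many cells (1.79), *Eda2r*, a receptor of the TNF family (1.48), and *Fbxo30*, a ubiquitin ligase (1.04). Without *Supt6*-KO mouse 4 the count lower was 7. With library totals 1 of the list was called higher. With the length correction 6 were lower and 2 higher, without *Gadd45a* (0.93), and the median was -0.52.

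Smooth and heart muscle were set beside these, with 24.9% lower and 20.9% higher over all genes as the background. Of 11 smooth muscle genes, 4 were lower and 1 higher, and their summed level was 138, 103, 110.0, 121 and 147 CPM in controls against 76.5, 94.5, 105 and 103 in *Supt6*-KO mice. *Synm*, one of the 2 with the highest CPM in controls, fell from 26.4 ± 3.05 to 7.27 ± 2.04 CPM, and *Myh11*, a defining gene, from 3.76 ± 1.62 to 1.24 ± 0.324 CPM. With the length correction *Myh11* was at -0.89 and no longer called, and 3 genes of the list were lower and 0 higher. Without *Supt6*-KO mouse 3 the count of higher genes was also 0. *Acta2*, another, was at 19.5 ± 3.65 and 13.6 ± 2.60 CPM and missed the limit (log2 fold change -0.52, SE 0.18, adjusted p = 0.021). *Tagln*, the highest per kilobase in controls, had 19.4 ± 3.397 CPM in controls against 30.5 ± 9.39 in *Supt6*-KO mice, also short of 2-fold (log2 fold change 0.65, SE 0.21, adjusted p = 0.015), and was at -0.09 with library totals. *Actg2* was the gene called higher (1.20).

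Of 8 heart genes tested, 2 were lower and 3 higher, and 1 was lower with DESeq2 and without control mouse 3 or 4. The count lower is near the 24.9% over all genes. *Actc1*, cardiac actin, which developing skeletal fibres also express, was at 33.5, 30.9, 24.2, 29.0 and 17.6 CPM in controls against 1.21, 1.20, 1.05 and 1.33 in *Supt6*-KO mice (log2 fold change -4.49, SE 0.23, adjusted p = 1.08e-07). The defining heart genes *Myh6* and *Nppa* were at 0 in every *Supt6*-KO mouse, with means of 0.0751 and 0.0324 CPM in controls. Both means lie under the 0.129 CPM that the floor of 3 counts per *Supt6*-KO library makes, so no fall can be read. *Nppa* was not tested. *Myh6* is one of the 2 called lower, and its call ended in 6 alternatives, the length correction among them. *Nppb*, a natriuretic peptide gene, rose from 0.294, 0.137, 0.0830, 0.0270 and 0.0255 CPM in controls to 7.14, 11.8, 12.1 and 24.6 CPM in *Supt6*-KO mice (log2 fold change 6.90, SE 0.56, adjusted p = 1.60e-06), and *Myl7*, an atrial light chain, from 0.0795 ± 0.0479 to 1.95 ± 1.49 CPM.

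Genes that mark other tissues and cells of the skin were counted in the same way, beside 24.9% lower and 20.9% higher over all genes. All 9 cartilage genes tested were lower, or 8 with the length correction, without *Hapln1* (-0.98), with a median log2 fold change of -3.43. Their summed level was 572, 461, 438, 664 and 989 CPM in controls against 75.3, 90.1, 81.5 and 82.8 in *Supt6*-KO mice, without overlap. *Acan*, aggrecan, the highest of them in CPM (*Cnmd* was per kilobase), went from 154 ± 83.8 to 13.2 ± 2.02 CPM, and *Col2a1*, collagen II, from 72.9 ± 37.4 to 5.01 ± 0.610 CPM. *Matn1*, another cartilage gene, was too low to test.

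Of 7 Schwann cell genes, 6 were lower (median -1.45), and their sum was 566, 575, 462, 582 and 654 CPM in controls against 170.2, 172, 170.5 and 153 in *Supt6*-KO mice. *Pmp22* was the most abundant, also per length. The adipocyte list had 8 of 11 lower, with sums of 817, 867, 843, 745 and 640.4 CPM in controls against 475, 482, 609 and 467 in *Supt6*-KO mice. *Lpl* and *Fabp4* had the highest CPM in controls, and *Fabp4* the highest level per kilobase. *Lpl* had a log2 fold change of -1.32, and *Plin1* and *Lep*, which define fat cells, had the largest changes, -2.88 and -3.04. *Fabp4*, the fatty acid binding protein of fat cells, was 206 ± 54.7 CPM in controls against 284 ± 59.1 in *Supt6*-KO mice and did not pass (log2 fold change 0.46, SE 0.21, adjusted p = 0.072), nor did *Cfd* (-0.13) and *Retn* (-0.37). After the length correction 10 of the list were lower, *Cfd* and *Retn* among them (-1.22 and -1.26), and *Fabp4* turned to -0.63, as it did with library totals to -0.23.

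The blood endothelium had 5 of 8 genes lower, with sums of 101, 83.9, 64.1, 108 and 140.4 CPM and 49.8, 51.0, 56.8 and 40.7 CPM in the 2 groups and *Pecam1* the most abundant, also per length (-1.08). With the length correction 1 was lower, the median went from -1.13 to -0.62, and *Pecam1* was at -0.97, short of 2-fold. With the replicate block and without control mouse 5 the count was 2. Of 10 fibroblast genes 3 were lower, or 5 with the length correction and 7 with library totals, and the sums overlapped, at 5027, 4547, 3203, 6212 and 10909.6 CPM and 2671, 3188, 4023 and 2154 CPM, with *Col3a1* the highest in CPM (log2 fold change -0.31, SE 0.34, adjusted p = 0.43) and *Dcn* the highest per kilobase (log2 fold change -0.75, SE 0.24, adjusted p = 0.014). *Col3a1* turned to 0.29 with the length correction. The count of fibroblast genes lower is near the 24.9% over all genes. Among the 3 lower, *Col1a1* and *Col1a2*, the chains of collagen I, had the largest changes (log2 fold changes -3.64 and -2.37), and both were called in all alternatives.

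With TMM scaling, keratinocyte and leukocyte lists had higher sums in *Supt6*-KO mice, each through 1 gene for the most part. The 10 keratinocyte genes summed to 29719.5, 29425, 28986, 32167 and 29302 CPM in controls against 47231, 42757, 43379 and 32702 in *Supt6*-KO mice, with 2 higher and 3 lower and a median log2 fold change of -0.55. These counts are near the 24.9% lower and 20.9% higher over all genes. Without *Supt6*-KO mouse 4 and with library totals 5 were lower, and with the length correction 1 was higher. The direction of the keratinocyte sum depends on the scaling. Its mean was lower in *Supt6*-KO mice with library totals, where only *Supt6*-KO mouse 1 was not below every control. The leukocyte sum stayed higher with library totals. *Krt10* had the highest CPM in controls, *Krt1* rose most (log2 fold change 3.65) and *Krt15* fell most (-2.65). *Krt1* went from a mean of 833 ± 159 to 10424 ± 2428 CPM, and the other 9 genes summed to 29087 ± 1306 (SD, n = 5) and 31093 ± 3859 CPM (SD, n = 4), with *Supt6*-KO mouse 4 below every control. Leukocyte genes summed to 218, 206, 172, 206 and 285 CPM and 728, 749, 1056 and 530.3 CPM, with 4 of 8 higher and 2 lower and *Lyz2* the most abundant, also per length (2.79), and their median was 0.64. *Lyz2* went from 92.9 ± 18.5 to 641 ± 207 CPM, and the other 7 genes summed to 125 ± 25.5 (SD, n = 5) and 125 ± 15.5 CPM (SD, n = 4), with *Csf1r* and *Laptm5* lower. The count of higher leukocyte genes was 2 with library totals, upper-quartile factors or the length correction and without control mouse 2 or 3. Over the lists of other tissues, *Myh6*, *Nppa* and *Matn1* were the only genes at 0 in all *Supt6*-KO mice. Their control means all lie under the floor of 3 counts per library. The plot of summed levels sets the lists side by side. The part of these other tissues in the muscle result was not tested.

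**Figure D3:**
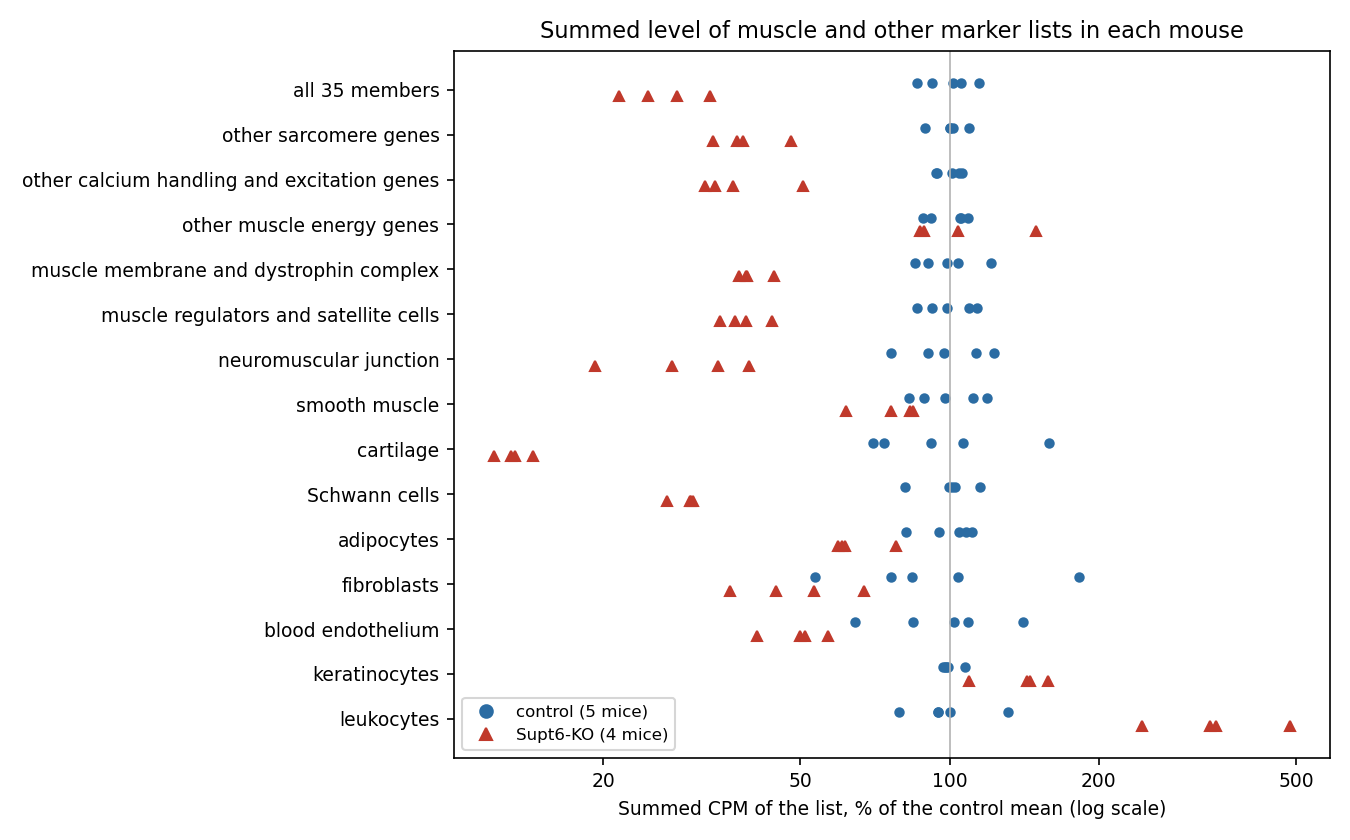
Summed TMM-normalised CPM of each gene list as a percentage of its control mean (log axis), for 5 control mice (circles) and 4 *Supt6*-KO mice (triangles). The 35 members, most other skeletal muscle lists, cartilage and Schwann cell genes lie well below 100% in all *Supt6*-KO mice. Other muscle energy genes and smooth muscle mix with the controls, and keratinocyte and leukocyte sums lie above them. The places of the keratinocyte and other muscle energy lists depend on the TMM scaling.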

How the data were processed

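Estimated counts per gene and, for 6 of the 9 mice, TPM values were read as the authors deposited them. Per the labels and the study's methods, the authors used Bowtie2 2.3.4.3 for alignment to mm10 and RSEM 1.3.1 for the estimated counts, without scaling between mice. The annotation release, strand setting and RNA integrity are not given in the sources used here. TPM values were used only to order levels. About 9.0% of the count values were not whole, and all were rounded.

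Genes with at least 10 counts over the 9 mice were tested with edgeR 4.0.16 in R 4.3.3 (TMM, quasi-likelihood, no covariates, Benjamini-Hochberg over 16426 genes). DESeq2 1.42.0 was an alternative. The SE is the absolute log2 fold change over the square root of F. The other alternatives were library totals, upper-quartile factors, factors without muscle genes or without the 50 most abundant genes, other filters, an unadjusted p, a length correction (spline with 4 degrees of freedom on log10 length of the longest GENCODE M21 coding transcript), a replicate block, and each mouse left out. Identifiers were matched to RefSeq genes of GRCm38.p6 (17917 of 17943). Tests were tried on simulated counts.

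The members and lists were chosen with earlier results of these data known. Every value per mouse is given for the isoform genes and the 2 largest and 2 smallest changes of each role group, and for other lists the 2 genes with the highest CPM in controls and the 2 with the largest change among those called are named. The other members may also be named, as may all calls of a list in a direction with 5 or fewer. *Acta2*, *Nppa*, *Matn1*, *Myl3*, *Megf10*, *Dmd*, *Cav3*, *Hapln1*, *Tagln*, *Cnmd*, *Dcn*, *Cfd* and *Retn* lie outside this rule and were named after their values were seen, and some genes that the rule names are not reported here. Replicates are separate mice by their titles.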

Additional observations from a re-analysis of the deposited data

Results flagged for a closer look

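Within a group of 4 or 5 mice, 5 of the 142 groups of values examined had 1 mouse far from the rest by Dixon's ratio, where chance at 1 in 20 would give about 7.1. Among the muscle genes, *Supt6*-KO mouse 1 stood above the other 3 for *Mybpc2*, at 3.01 CPM against a group median of 2.01. Control mouse 2 stood above the other controls for the share of *Tnnc1* within troponin C, at 3.03% against a median of 2.06%. In the other lists, the summed adipocyte level of *Supt6*-KO mouse 3 was high at 609.5 CPM against a median of 478.5, the summed Schwann cell level of *Supt6*-KO mouse 4 was low at 152.7 CPM against 170.3, and the summed keratinocyte level of control mouse 4 was high at 32167 CPM against 29425.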

How the results depend on the processing

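Of the 29 muscle genes called lower, 25 were called lower in all 19 alternatives with an adjusted p that tested them, and 34 of the 35 members had a log2 fold change below 0 in each. The count of members called lower ran from 27 to 34 over the alternatives with all 9 mice and from 25 to 32 with one mouse left out. *Tnnt1* missed the 2-fold limit with DESeq2 and without control mouse 2 or 3 or *Supt6*-KO mouse 4, and *Tnnc1* with DESeq2 and without control mouse 2 or *Supt6*-KO mouse 4. *Tnni1* turned to a negative log2 fold change with library totals (-0.71), upper-quartile factors (-0.075), muscle genes left out of the factors (-0.00373), at least 10 counts in every mouse (-0.043), the length correction (-0.88), the replicate block (-0.043) and block with length correction (-0.85), and with one mouse left out it ran from -0.15 to 0.15. For *Supt6* the length correction gave -0.87 and, with the block, -0.84, short of 2-fold.

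With library totals 6802 genes were lower and 1470 higher over all genes, 1 gene of the wasting list and 0 of the other energy genes were higher. With the length correction, alone or with the block, 0 other energy genes and 1 regulator and satellite cell gene were higher. The counts by role, by fibre type and for lists of other tissues were also taken under each alternative, a step chosen after the data were seen, and most of those that moved by over 1.5 times stand beside their lists. Requiring at least 10 counts in every mouse left 4 regulator and satellite cell genes called lower, since fewer genes were then tested. Divided by transcript length, the *Tnni1* share was 2.56% in controls and 4.61% in *Supt6*-KO mice. With the replicate number as a block, 31 members were lower (*Myoz1* and *Mb* were added), and 3834 genes were lower and 3134 higher over all genes. Same-numbered mice correlated in their deviations by -0.015 to 0.13 and most mice correlated best with another number, so the numbers were not taken as pairs. *Tnnc1*, with few counts, has the largest SE of the members, and p-values cover the spread between these mice only.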
